A study of Mus musculus with 8 samples.

Results

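The genes described here are 9 markers of the differentiated renal tubule, taken by gene symbol from the deposited count table: Aqp1, Hnf4a, Lrp2, Cubn, Umod, Ass1, Gatm, Wfdc2 and Maf. They are 9 of 55558 Ensembl gene features. All 9 had a row, 7 had at least 1 count in any library, and 6 had enough counts to be tested. The series compared 2 mouse kidney cell lines of metanephric mesenchymal origin, the source of the nephrons in the embryo. The mK4 line is labelled as mesenchyme differentiated towards epithelium, and the mK3 line as uninduced mesenchyme. Both are labelled wild type and untreated, and culture conditions were shared. There were 3 RNA-seq libraries of mK4 and 3 of mK3, plus 1 ATAC-seq library, which maps open chromatin, for each line. Each labelled state is represented by a single cell line, so line and state cannot be told apart. Nothing in the labels shows that replicate libraries are independent cultures. A p-value here therefore reflects only the variation among the sequenced libraries, which could be technical.

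Filtered fluid leaves the glomerulus and passes first through the proximal tubule, which takes back most of the water, solutes and small proteins. Megalin (Lrp2) and cubilin (Cubn) are very large endocytic receptors that act together on its brush border, and aquaporin 1 (Aqp1) is the water channel of the proximal tubule and the thin descending limb. HNF4A is a nuclear receptor that directs proximal tubule maturation, and MAF is a basic leucine zipper transcription factor. Uromodulin (Umod) is the secreted glycoprotein of the thick ascending limb, and Wfdc2 encodes a secreted protein of tubule and other epithelia with WAP-type disulfide domains. Argininosuccinate synthase (Ass1) and glycine amidinotransferase (Gatm) are proximal tubule enzymes of arginine and creatine synthesis.

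The count table held 137559391 to 152952351 counts per library. Levels below are CPM, counts scaled to library size with TMM factors, which are not corrected for gene length and so are compared between lines and not between genes. Means are given ± SD with n = 3 libraries per line. Over all 20405 genes tested with edgeR's quasi-likelihood test, 40.3% were called at a Benjamini-Hochberg adjusted p under 0.05, with 20.8% higher and 19.5% lower in mK4, and the median log2 fold change was 0.02. Libraries correlated at 0.985 to 0.988 within mK4 and 0.986 to 0.987 within mK3, and at 0.886 to 0.892 between the lines, on the log2(CPM + 1) scale across genes. A value of 0 has to be read with care. Of the 55558 Ensembl gene features, 25379 were at 0 in all 6 libraries. Among genes with at least 50 counts in at least 2 libraries of a line, 1.83% of 16746 genes in mK4 and 1.42% of 16427 in mK3 were at 0 in the other library of that line.

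RefSeq start regions (GRCm38.p6, the assembly of mm10) were found for 8 of the 9 genes, Maf being the one without. Of these, the regions of the 5 tested genes are shown, because they are the stretches in which letters of known tubule factor elements were searched. Each runs 5′ to 3′ on the gene's own strand, from 250 bases before the start site to 50 after it, in lower case. Capitals mark the motif matches described next.
Lrp2, chr2:69585980-69586279, minus strand: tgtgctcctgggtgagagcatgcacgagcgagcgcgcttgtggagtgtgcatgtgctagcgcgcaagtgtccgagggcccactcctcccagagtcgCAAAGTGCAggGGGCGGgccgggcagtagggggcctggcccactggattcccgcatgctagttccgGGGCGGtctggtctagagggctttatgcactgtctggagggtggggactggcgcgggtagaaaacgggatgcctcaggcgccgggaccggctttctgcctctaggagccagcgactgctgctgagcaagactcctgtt
Aqp1, chr6:55336049-55336348, plus strand: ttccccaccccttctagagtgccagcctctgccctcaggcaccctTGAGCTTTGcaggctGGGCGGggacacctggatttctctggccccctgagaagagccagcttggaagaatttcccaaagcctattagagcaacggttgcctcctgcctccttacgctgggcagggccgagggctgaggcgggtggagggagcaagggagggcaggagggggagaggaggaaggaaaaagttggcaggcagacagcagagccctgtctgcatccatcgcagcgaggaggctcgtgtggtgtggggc
Wfdc2, chr2:164562465-164562764, plus strand: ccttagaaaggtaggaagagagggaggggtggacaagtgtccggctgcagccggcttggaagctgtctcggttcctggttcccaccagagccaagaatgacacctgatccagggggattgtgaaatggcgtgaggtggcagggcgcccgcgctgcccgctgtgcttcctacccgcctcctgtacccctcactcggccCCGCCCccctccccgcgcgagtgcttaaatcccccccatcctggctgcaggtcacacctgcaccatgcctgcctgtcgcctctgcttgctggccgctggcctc
Cubn, chr2:13491827-13492126, minus strand: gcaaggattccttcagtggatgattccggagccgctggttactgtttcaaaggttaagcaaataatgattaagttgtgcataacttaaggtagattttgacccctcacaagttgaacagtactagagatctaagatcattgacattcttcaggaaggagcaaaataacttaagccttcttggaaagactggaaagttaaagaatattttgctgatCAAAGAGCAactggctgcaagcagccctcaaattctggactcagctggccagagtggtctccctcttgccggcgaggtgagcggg
Ass1, chr2:31470020-31470319, plus strand: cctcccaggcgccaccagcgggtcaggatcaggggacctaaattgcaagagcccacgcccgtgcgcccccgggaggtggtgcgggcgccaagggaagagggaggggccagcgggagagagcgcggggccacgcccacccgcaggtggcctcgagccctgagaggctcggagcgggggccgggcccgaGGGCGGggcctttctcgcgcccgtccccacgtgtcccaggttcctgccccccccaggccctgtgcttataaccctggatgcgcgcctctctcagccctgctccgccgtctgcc

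The motifs were searched on both strands of 32851 start regions and were chosen after the sequences had been seen. The counts below are therefore no test of enrichment, and the 8 genes hold 10 start regions, while the shares are of single regions. A short form of the HNF4 element, CAAAGNNCA, was present in Aqp1, Lrp2 and Cubn, 3 of the 8 genes. Of all start regions 6.36% held it. In Lrp2 it read CAAAGTGCA and began 154 bases before the start site. In Cubn it read CAAAGAGCA and began 35 bases before it. In Aqp1 it lay on the opposite strand, as TGAGCTTTG, and began 205 bases before the start. The longer form CAAAGTCCA, which the short form contains as a case, was in none of the 8 genes and in 0.475% of regions. The GC box GGGCGG was in Aqp1, Hnf4a (upstream start), Lrp2, Ass1 and Wfdc2, against 35.7% of regions. The TEAD element GGAATG was in Umod, against 14.7%. The Maf half-site TGCTGAC (4.67% of regions), the AP-1 element TGANTCA (7.81%) and the TATA box TATAAA (13.6%) were in none of the 8 genes. A match describes letters in this window and is not a binding site. The start regions also differed in CpG content, with 27 CpG in Ass1, 22 in Gatm, 20 in Lrp2, 16 in Wfdc2, 8 in Aqp1, 5 in Cubn, 4 in each Hnf4a region and 0 in Umod, against a median of 7 over all regions.

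Comparing mK4 with mK3 asks whether the line labelled as epithelial carries more RNA of tubule genes. The answer differed by gene. Lrp2, Aqp1, Wfdc2 and Maf rose in mK4, Ass1 and Cubn fell, and Hnf4a, Umod and Gatm were at or near 0 in both lines. Of the 6 genes tested, 4 were called higher and 2 lower, where 20.8% and 19.5% of all tested genes were. Libraries of the lines did not overlap for any of the 6, as was the case for 56.1% of all tested genes (28.8% with mK4 above mK3 and 27.2% with mK4 below). In bulk RNA, more cells carrying a transcript and more RNA per cell cannot be told apart.

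**Figure D1:**
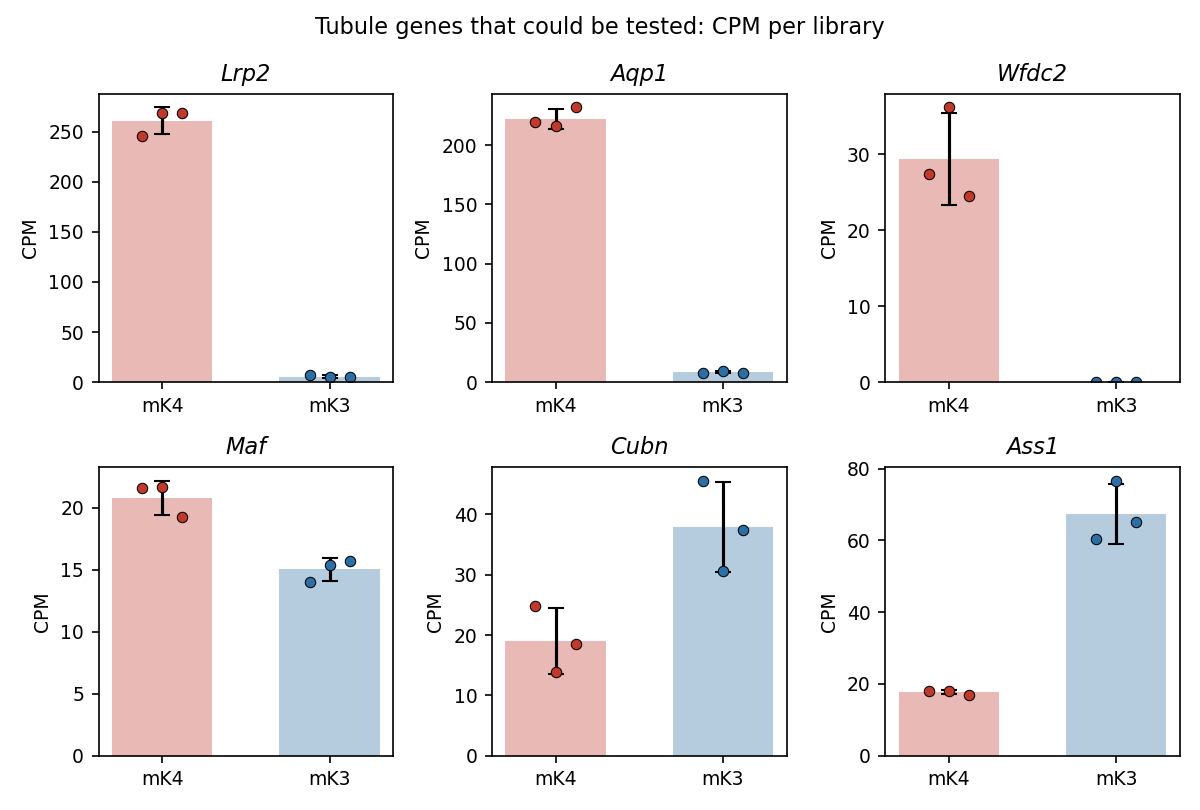
CPM of the 6 tested tubule genes in each library, with bars for the mean and error bars for the SD over 3 libraries, mK4 on the left and mK3 on the right of each panel. Lrp2, Aqp1, Wfdc2 and Maf are higher in mK4, Cubn and Ass1 are lower, and no mK4 point lies within the range of the mK3 points.

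The endocytic receptors went in opposite directions. Lrp2 had 246, 269 and 269 CPM in the mK4 libraries, against 7.07, 4.99 and 4.68 CPM in the mK3 libraries. Every mK4 library was far above every mK3 library, and the fold was 46.8 (log2 fold change 5.55, SE 0.20, adjusted p = 1.78e-05). Only 2.16% of tested genes were raised as much or more. Cubn had 24.8, 13.9 and 18.5 CPM in mK4 libraries, against 45.6, 30.7 and 37.4 CPM in mK3 libraries. The libraries varied widely within each line, and the highest mK4 library stood just below the lowest mK3 library. The log2 fold change was -0.99 (SE 0.25, adjusted p = 0.0216), and 15.3% of tested genes were lowered as much or more. The call was lost without mK4 replicate 3 (adjusted p = 0.0674), without mK3 replicate 1 (0.0656) or without mK3 replicate 3 (0.0559). Cubn is overlapped by the long noncoding gene Gm13270, at 2.54 ± 0.08 CPM in mK4 and 2.18 ± 0.89 CPM in mK3 (adjusted p = 0.636). The sources do not state whether reads were assigned by strand, so reads of the pair may not be separated. Its neighbour Rsu1, 4900 bases away, also fell, to 153 ± 9.96 CPM in mK4 against 211 ± 20.7 CPM in mK3 (log2 fold change -0.47, adjusted p = 0.00911).

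The water channel gene Aqp1 had 219, 216 and 232 CPM in mK4 libraries, against 7.70, 9.57 and 8.0 CPM in mK3 libraries. The mK3 libraries lay close together and well above 0, so a low level was measured there rather than none. The fold was 26.4 (log2 fold change 4.72, SE 0.11, adjusted p = 7.12e-06), and 2.99% of tested genes were raised as much or more.

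Of the secreted tubule protein genes, Wfdc2 was detected in mK4 and Umod in no library. Wfdc2 had 3742, 5513 and 3684 counts in the mK4 libraries, or 27.4, 36.2 and 24.5 CPM, and 0 counts in every mK3 library. Set against a floor of 3 counts per mK3 library, at most 0.0242 CPM, its level in mK4 was at least 1217-fold higher (adjusted p = 0.000101). Such floors cover counting error only. With this bound as its value, 0.181% of tested genes were raised as much or more. Umod, by contrast, was at 0 counts in all 6 libraries, as was its neighbour and relative Gp2, which lies 3436 bases away. The floor of 3 counts is at most 0.022 CPM in mK4 and 0.0242 CPM in mK3. Some genes with at least 50 counts in at least 2 libraries of a line were at 0 in the other. The level that could go undetected may therefore be higher than this floor.

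Neither proximal tubule enzyme gene was called higher in mK4. Ass1, which joins citrulline and aspartate on the way to arginine, had 17.9, 18.0 and 17.0 CPM in mK4 libraries, against 60.5, 76.6 and 65.1 CPM in mK3 libraries. The mK4 libraries were nearly identical, and all lay far below mK3. Its log2 fold change was -1.93 (SE 0.11, adjusted p = 7.28e-05), 3.82-fold lower in mK4, and 7.89% of tested genes were lowered as much or more. Gatm, the first enzyme of creatine synthesis, had 0, 28 and 0 counts in mK4 libraries and 0 counts in every mK3 library, which was too low to test. Without the low-count filter its adjusted p was 0.263.

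Of the transcription factor genes, Hnf4a was at 0 counts in all 6 libraries, as was its overlapping antisense gene Hnf4aos. The same floor and the same caution apply to Hnf4a as to Umod. Maf had 21.5, 21.6 and 19.2 CPM in mK4 libraries, against 14, 15.4 and 15.7 CPM in mK3 libraries. The difference was small but the libraries did not overlap, with a fold of 1.38 (log2 fold change 0.47, SE 0.11, adjusted p = 0.0151). A share of 32.1% of tested genes was raised as much or more. The call was lost in 3 of 13 alternatives, among them leaving out mK4 replicate 1 (adjusted p = 0.0549) or mK4 replicate 2 (0.0523).

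**Figure D2:**
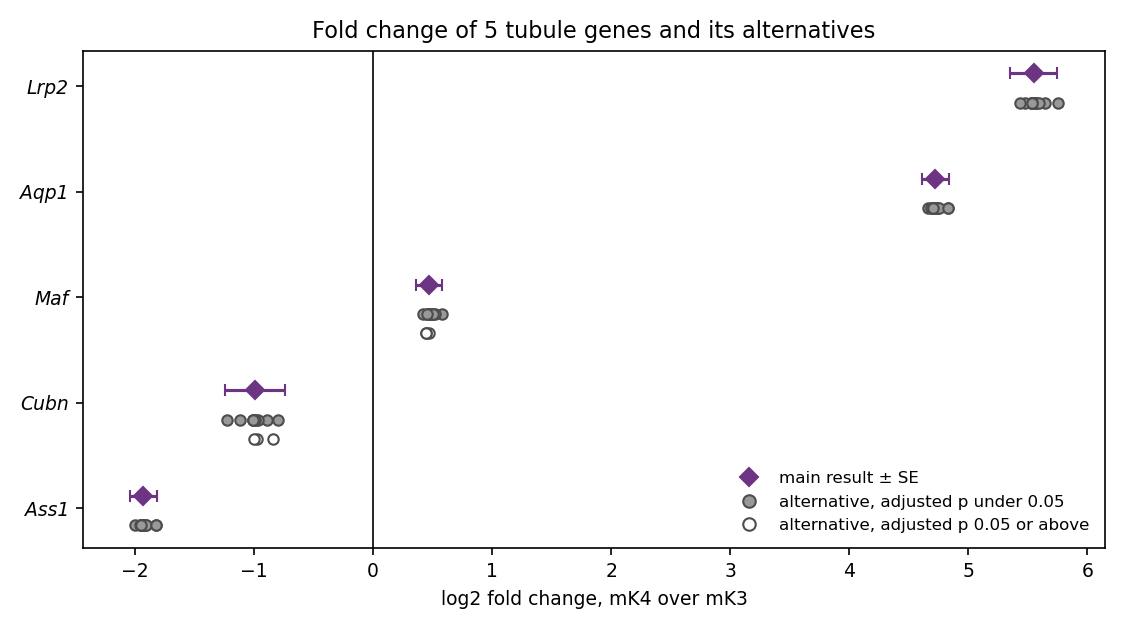
Log2 fold change of mK4 over mK3 for 5 tubule genes, with diamonds for the result as reported (bars, SE) and circles for the alternatives, filled where the adjusted p was under 0.05 and open where it was not. Lrp2, Aqp1 and Ass1 have filled circles only, while Maf and Cubn have 3 open circles each. Wfdc2 is not drawn because it was at 0 in mK3.

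A total of 6 of the 9 genes lie on chromosome 2 (Cubn, Ass1, Lrp2, Gatm, Hnf4a and Wfdc2), with Aqp1 on 6, Umod on 7 and Maf on 8. Of its 1310 tested genes with coordinates 21.6% were called higher in mK4 and 16.9% lower, against 22.7% and 22.1% of 15330 on the other chromosomes. The 2 tested protein-coding genes nearest to each of these genes in profile were found by Euclidean distance between log2(CPM + 1) values over the 6 libraries, each centred on its own mean. They were F2rl1 and Pax8 for Aqp1 (0.236 and 0.238), Adgrl3 and Arhgef28 for Lrp2 (0.252 and 0.271) and Ugt8a and Mboat2 for Wfdc2 (0.38 and 0.388). For the genes that fell they were Ifit3b and Anxa3 for Ass1 (0.135 and 0.145) and Wdr4 and Rbmx2 for Cubn (0.254 and 0.264). For Maf they were Spidr and Arl2 (0.0495 and 0.0699). Adding 1 compresses low levels, so genes near in profile can differ in fold. F2rl1, for example, averaged 36.1 CPM in mK4 and 0.561 CPM in mK3, where Aqp1 averaged 222 and 8.43 CPM.

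Peaks of open chromatin were compared at the same genes. The peak lists held 34710 peaks in mK4 and 22477 in mK3 on the assembled chromosomes, 1 library per line, so the difference between lines has no replicate check. Fold enrichment is the authors' value for a peak within its own list and is not compared between lists, and the depth of these libraries is unknown. None of the 8 genes with a start site in the RefSeq table had a peak within 1 kb of it in either line. Of the 11902 tested genes with a start site there, 69.8% had such a peak in mK4 and 63.6% in mK3. Among genes called higher in mK4 the shares were 75.2% in mK4 and 58.8% in mK3, and among genes called lower 67.1% and 70.8%. Genes too low to test, among them Hnf4a, Umod and Gatm, had a start peak in 4.13% of cases in mK4 and 2.91% in mK3.

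Aqp1 had 2 peaks in its body in mK4 and 1 in mK3. The shared one, chr6:55338967-55339576 in mK4, had its summit 2.86 kb downstream of the start site and a fold enrichment of 6.86, above 78.9% of the mK4 list. In mK3 it was chr6:55338972-55339648, at 6.28, above 83.8% of that list. The peak listed only in mK4, chr6:55344722-55345162, lay 8.59 kb downstream with an enrichment of 4.38. Both lines also had a peak about the same place upstream, 21.43 kb before the start in mK4 (7.89) and 21.36 kb in mK3 (5.12). They stood above 86.7% of the mK4 list and 68.9% of the mK3 list. Peaks were thus listed near Aqp1 in mK3 too, where its RNA was low.

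Lrp2 spans 161695 bases and had a single body peak, in mK4 only, at chr2:69428199-69428436, with its summit 157.73 kb downstream of the start and an enrichment of 4.54. No peak was within 60985 bases of its start in mK4 or 60937 in mK3. Of 2181 genes with between 0.5 and 2 times its span, tested or not, 77.1% had at least as many body peaks in mK4. Its RNA was nevertheless among the most raised. Beyond its 3′ end the strongest peak nearby was chr2:69380208-69380697, at 12.18 and above 98.8% of the mK4 list. The overlapping mK3 peak, chr2:69380296-69380607, had an enrichment of 5.67, above 76.9% of the mK3 list.

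Cubn, whose RNA was lower in mK4, had 11 peaks in its body in mK4 against 6 in mK3. All 6 of the mK3 peaks overlapped an mK4 peak. The mK4 list was longer as a whole, at 34710 peaks against 22477. Cubn was rich in peaks for its span of 215539 bases in both lines. The median over 1559 genes of like span, tested or not, was 2 in mK4 and 1 in mK3. Only 4.3% of them had at least as many as Cubn in mK4 and 6.61% in mK3. The strongest was chr2:13450547-13451313 in mK4, 40.79 kb downstream of the start, with an enrichment of 12.95, above 99.3% of that list. In mK3 the overlapping peak chr2:13450848-13451243 had 6.59, above 86.5% of the mK3 list. Of the peaks listed only in mK4, the one closest to the start was chr2:13480804-13481143, 10.89 kb downstream, with 8.73.

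**Figure D3:**
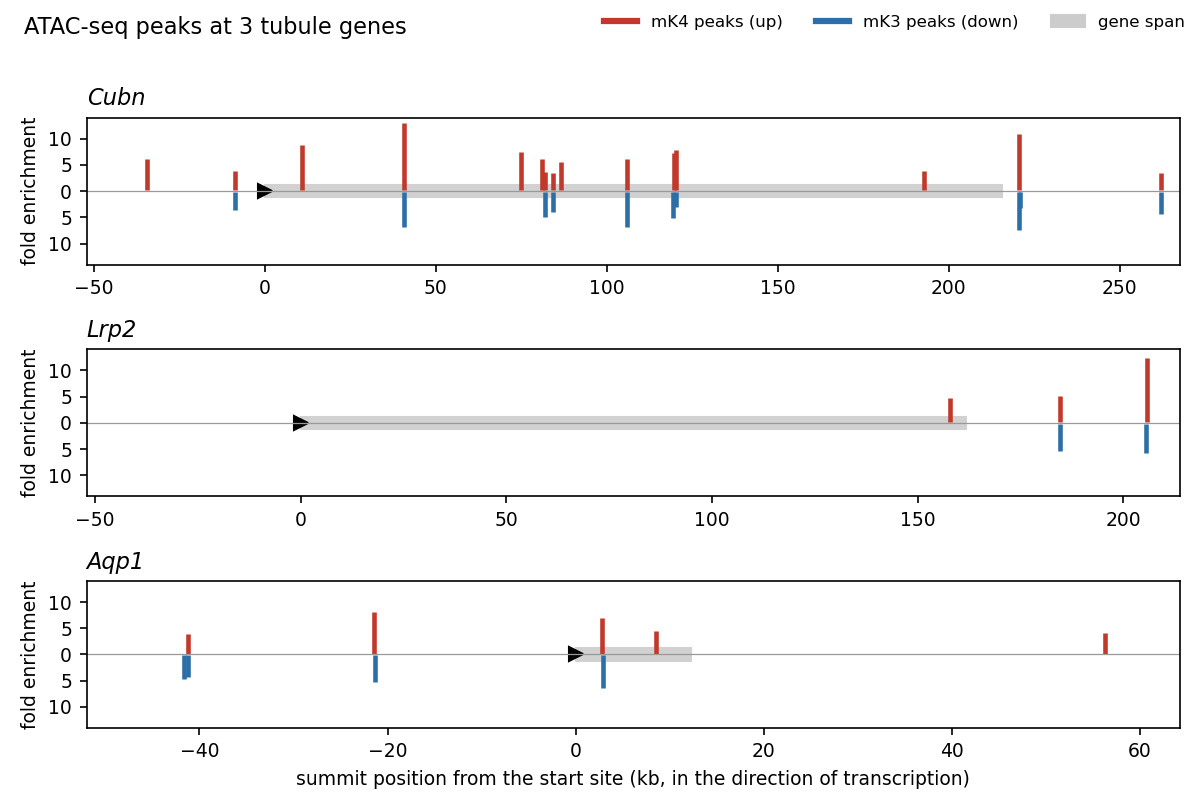
ATAC-seq peaks within 50 kb of Cubn, Lrp2 and Aqp1, by summit position from the start site in kb, with mK4 peaks drawn upwards and mK3 peaks downwards and line height giving the authors' fold enrichment within each list. The grey bar is the gene and the arrowhead its start. Cubn carries 11 body peaks in mK4 and 6 in mK3, Lrp2 has 1 and 0, and no peak sits at any of the start sites.

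At the other genes peaks were few. Wfdc2 had none in its body in either line, and the nearest was 40454 bases from its start in mK4 and 44499 in mK3. Ass1 also had none, with the nearest at 27488 bases in mK4 and 72159 in mK3. Gatm had a peak in mK4 only, chr2:122608889-122609142, 2.26 kb downstream of its start, with an enrichment of 5.45, although its RNA was near 0. Hnf4a had no body peak in either line, and the nearest lay 34026 bases from a start in mK4 and 34112 in mK3. Umod had no peak within 241396 bases of its start in mK4 or 314626 in mK3. The strand of Maf was not in the tables used. At 1 of its ends both lines had a pair of peaks, the stronger being chr8:115707769-115708554 in mK4 (5.82) and chr8:115707765-115708337 in mK3 (4.33). These stronger peaks stood above 68.2% of the mK4 list and 52.3% of the mK3 list. The annotation used gives gene spans without exons, so peaks are placed in gene bodies and not in exons or introns.

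Other genes of the tubule were read from lists that exclude the 9 genes. Of the 24 listed tubule transcription factors 20 were tested, and 12 were higher and 1 lower in mK4. Calls made up 65.0% of those tested, against 40.3% of all tested genes. The median log2 fold change was 4.21 when genes at 0 in a line are set to their bound, against 0.02 over all tested genes. Pax8, a paired-box factor of early nephron epithelium, averaged 39.4 ± 3.91 CPM in mK4 and 0.616 ± 0.131 CPM in mK3 (adjusted p = 1.7e-05). Irx1, a factor of the intermediate segment of the forming nephron, averaged 9.60 ± 0.293 CPM in mK4 and was at 0 in mK3 (adjusted p = 7.3e-05). Against the floor of 3 counts per mK3 library, which covers counting error only, Irx1 was 398-fold higher. Foxa1, Pou3f3, Lhx1, Irx2, Sim1, Sim2, Tfap2a, Tfcp2l1 and Ppargc1a were also called higher. Nr1h4, the bile acid receptor gene, fell to 17.4 ± 3.33 CPM in mK4 against 45.2 ± 0.793 CPM in mK3 (adjusted p = 0.00076). Hnf4g, the closest relative of Hnf4a, was too low to test, with 10, 0 and 0 counts in the mK4 libraries and 0 in every mK3 library. Genes other than Pax8, Irx1 and Nr1h4 are named after their values were seen.

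**Figure D4:**
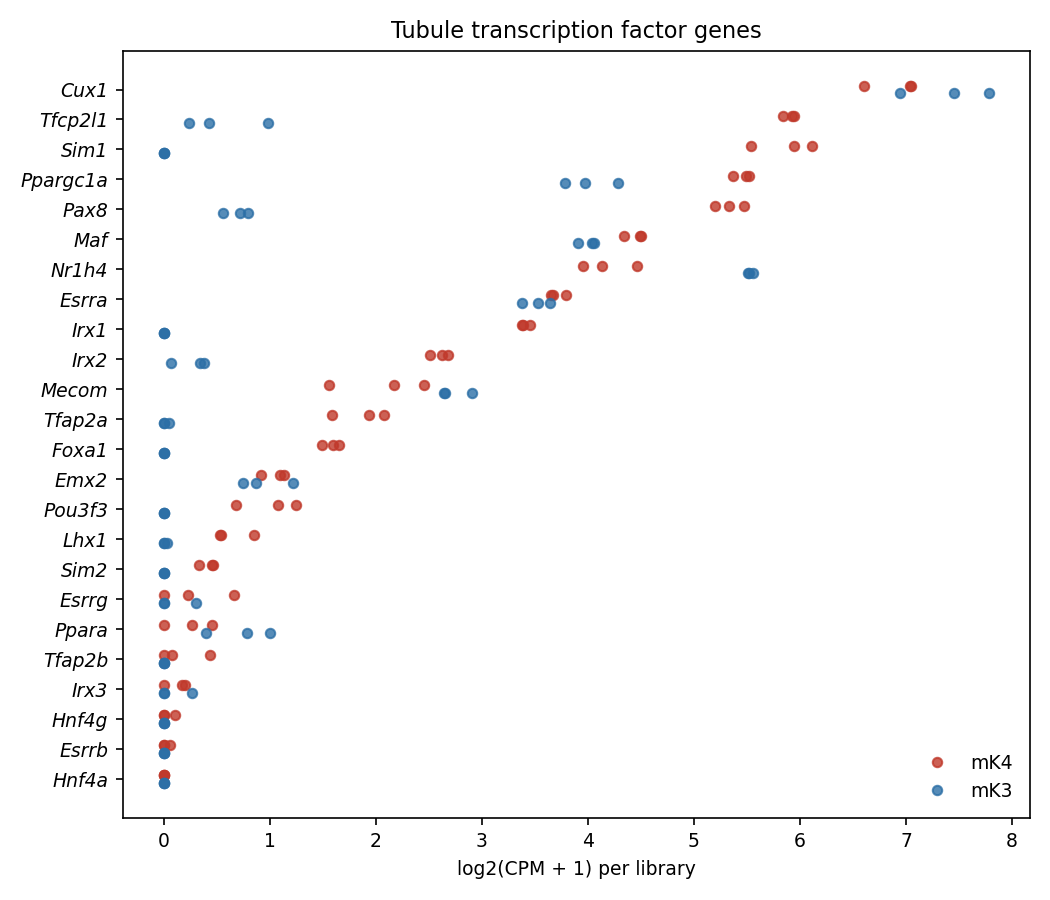
Log2(CPM + 1) of listed tubule transcription factor genes with Hnf4a and Maf, 1 point per library, mK4 in red above mK3 in blue for each gene. Irx1, Sim1, Foxa1 and Pou3f3 are at 0 in every mK3 library, and Hnf4a is at 0 in all 6 libraries; levels can be compared between lines within a gene, not between genes.

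Of 26 proximal tubule transporter genes 13 were tested, with 4 higher and 2 lower (median 1.22). Calls made up 46.2% of those tested, against 40.3% of all tested genes. The neutral amino acid transporter gene Slc6a19 averaged 2.55 ± 0.987 CPM in mK4 and was at 0 in mK3 (adjusted p = 0.00095). Against the floor of 3 counts per mK3 library, which covers counting error only, Slc6a19 was 106-fold higher. A 0 can occur at such levels, as Slc16a12 of the same list had 223, 0 and 416 counts in the mK4 libraries. Slc17a1, a phosphate transporter gene, and Slc22a4, a carnitine and organic cation transporter gene, rose from low levels, to 0.350 ± 0.166 and 2.96 ± 0.698 CPM in mK4, with 0 and 0.262 ± 0.167 CPM in mK3 (adjusted p = 0.00535 and 0.00748). The Slc17a1 call was lost in 1 of 12 alternatives. Slc22a5 was the other gene called higher. The cystine transporter subunit gene Slc3a1 fell to 0.190 ± 0.049 CPM in mK4 against 14.7 ± 3.62 CPM in mK3, and the bicarbonate transporter gene Slc4a4 to 188 ± 7.05 against 457 ± 27.4 CPM (adjusted p = 5.4e-05 for each). A total of 7 of the 26, among them Slc34a1, Slc22a6 and Slc7a9, had 0 counts in all libraries. Of 25 proximal tubule enzyme genes 10 were tested, with 3 higher and 2 lower (median 0.84), and another 10 were at 0 throughout. The shares over all tested genes were 20.8% higher and 19.5% lower. Napsa, an aspartic protease gene, averaged 20.8 ± 1.5 CPM in mK4 and 0.308 ± 0.137 CPM in mK3. Dpep1, a brush-border dipeptidase gene, averaged 40.2 ± 1.20 CPM in mK4 and 0.956 ± 0.575 CPM in mK3. The neprilysin gene Mme rose to 33.1 ± 7.88 CPM in mK4 against 11.2 ± 2.51 CPM in mK3. Anpep, an aminopeptidase gene, was called lower, at 6.57 ± 2.59 CPM in mK4 and 13.7 ± 1.59 CPM in mK3 (adjusted p = 0.0432), a call lost in 7 of 13 alternatives, among them leaving out mK4 replicate 2 or any 1 of the 3 mK3 replicates (adjusted p up to 0.12).

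Of 12 genes for partners of megalin and cubilin in endocytosis 11 were tested, with 1 higher and 3 lower (median -0.11). The share called was 36.4%, near the 40.3% of all tested genes. Myo6, a myosin that moves endocytic vesicles, rose to 151 ± 24.7 CPM in mK4 against 92.5 ± 11.9 CPM in mK3 (adjusted p = 0.012). Clcn5, the endosomal chloride transporter gene, fell to 200 ± 20.2 CPM in mK4 against 490 ± 22.4 CPM in mK3 (adjusted p = 0.000128). Rab5a, a small GTPase gene of early endosomes, fell to 86.0 ± 5.64 CPM in mK4 against 176 ± 9.93 CPM in mK3, and Ehd1, a gene of endosome recycling, to 75.0 ± 7.12 against 115 ± 17.1 CPM. Amn, which encodes the partner that brings cubilin to the membrane, was too low to test, with 0 counts in every mK4 library and 12, 11 and 6 in the mK3 libraries. Dab2, an adaptor gene that binds megalin, had 6918, 6703 and 7825 counts in mK4 and 5697, 5616 and 5027 in mK3 (adjusted p = 0.0693). In the LDL receptor family, to which megalin belongs, 13 of 15 genes were tested, with 6 higher and 4 lower (median 0.35), a share called of 76.9%. Lrp11, Sorl1 and Lrp5 rose, to 64.6 ± 9.89, 85.3 ± 3.11 and 151 ± 29.1 CPM in mK4, with 21.5 ± 2.36, 0.132 ± 0.229 and 53.0 ± 15.2 CPM in mK3. Vldlr, Lrp6 and Lrp1 fell, to 36.3 ± 2.96, 290.2 ± 20.4 and 284 ± 34.4 CPM in mK4, with 68.5 ± 5.95, 424 ± 2.22 and 591 ± 119 CPM in mK3.

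Around Ass1 and Gatm, 18 of 24 genes of arginine and creatine metabolism were tested, with 5 higher and 4 lower (median 0.02). The shares over all tested genes were 20.8% higher and 19.5% lower, 40.3% in either direction. Odc1, which makes putrescine from ornithine, rose to 88.9 ± 3.41 CPM in mK4 against 33.3 ± 3.93 CPM in mK3 (adjusted p = 0.00019). Nos2, an inducible nitric oxide synthase gene, rose to 20.2 ± 3.91 CPM in mK4 against 8.71 ± 0.185 CPM in mK3, and Ddah1, which clears methylated arginine, to 23.0 ± 2.44 against 12.9 ± 0.658 CPM. Slc7a1, the cationic amino acid transporter gene through which arginine enters cells, fell to 49.7 ± 6.14 CPM in mK4 against 258 ± 18.5 CPM in mK3 (adjusted p = 4.2e-05). Slc6a8, the creatine transporter gene, fell to 5.91 ± 1.60 CPM in mK4 against 19.3 ± 8.29 CPM in mK3. Cps1, a urea cycle enzyme gene, was at 0 in mK4 and 1.96 ± 0.988 CPM in mK3. Against the floor of 3 counts per mK4 library, which covers counting error only, Cps1 was 89.2-fold lower. Asl, the enzyme after Ass1, had 3008, 2893 and 2939 counts in mK4 and 3475, 2375 and 2182 in mK3 (adjusted p = 0.928).

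Of 27 genes of the loop of Henle and distal tubule 12 were tested, with 5 higher and none lower (median 0.92). The share called, all of it higher in mK4, was 41.7%. Over all tested genes 20.8% were called higher and 19.5% lower, 40.3% in either direction. The kidney cadherin gene Cdh16 averaged 84.2 ± 4.41 CPM in mK4 and was at 0 in mK3. Stk39, a kinase gene that activates sodium chloride cotransporters, averaged 43.0 ± 10.4 CPM in mK4 and 0.870 ± 0.321 CPM in mK3, and the magnesium channel gene Trpm6 5.44 ± 0.566 CPM in mK4 and 0.618 ± 0.111 CPM in mK3. Slc12a1, the defining cotransporter gene of the segment that makes uromodulin, had 41, 0 and 48 counts in mK4 and 143, 249 and 188 in mK3 (adjusted p = 0.142). Among relatives of Umod, the ZP-domain glycoprotein genes, 4 of 13 were tested. Eng rose to 2.59 ± 0.420 CPM in mK4 against 0.335 ± 0.148 CPM in mK3, while Tgfbr3 fell to 442 ± 15.2 against 776 ± 48.8 CPM and Tecta was at 0 in mK4 and 1.25 ± 0.796 CPM in mK3 (median of the 4, -1.87). Of the other 10 aquaporin genes 4 were tested and 2 called higher (median 1.25). Aqp5 averaged 3.55 ± 0.213 CPM in mK4 and 0.630 ± 0.583 CPM in mK3 (adjusted p = 0.0289), a call lost without any 1 of the mK4 replicates and without mK3 replicate 2 (adjusted p up to 0.0923). Aqp8 averaged 0.263 ± 0.156 CPM in mK4 and was at 0 in mK3 (adjusted p = 0.0114), a call lost in 1 of 12 alternatives. Among 20 genes of the WAP family to which Wfdc2 belongs, 4 were tested (median -0.65). Slpi, an elastase inhibitor gene, rose to 140 ± 4.91 CPM in mK4 against 27.1 ± 3.11 CPM in mK3 (adjusted p = 3.3e-05). Wfdc17 was at 0 in mK4 and 1.05 ± 0.338 CPM in mK3, and 11 of the 20 were at 0 in all libraries. Of 10 genes of MAF relatives and the small Maf partners and their co-factors 8 were tested. None was called higher and 4 were called lower (median -0.69), where 20.8% and 19.5% of all tested genes were. Bach1 fell to 33.5 ± 1.28 CPM in mK4 against 65.1 ± 7.80 CPM in mK3, Nfe2l2 to 21.2 ± 1.16 against 35.8 ± 0.680 CPM, and Maff to 4.2 ± 0.252 against 8.14 ± 0.091 CPM. Mafg was the other called lower. Mafk, at 12.7 ± 1.03 CPM in mK4 and 8.78 ± 1.81 CPM in mK3, was not called (log2 fold change 0.53, adjusted p = 0.0601).

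**Figure D5:**
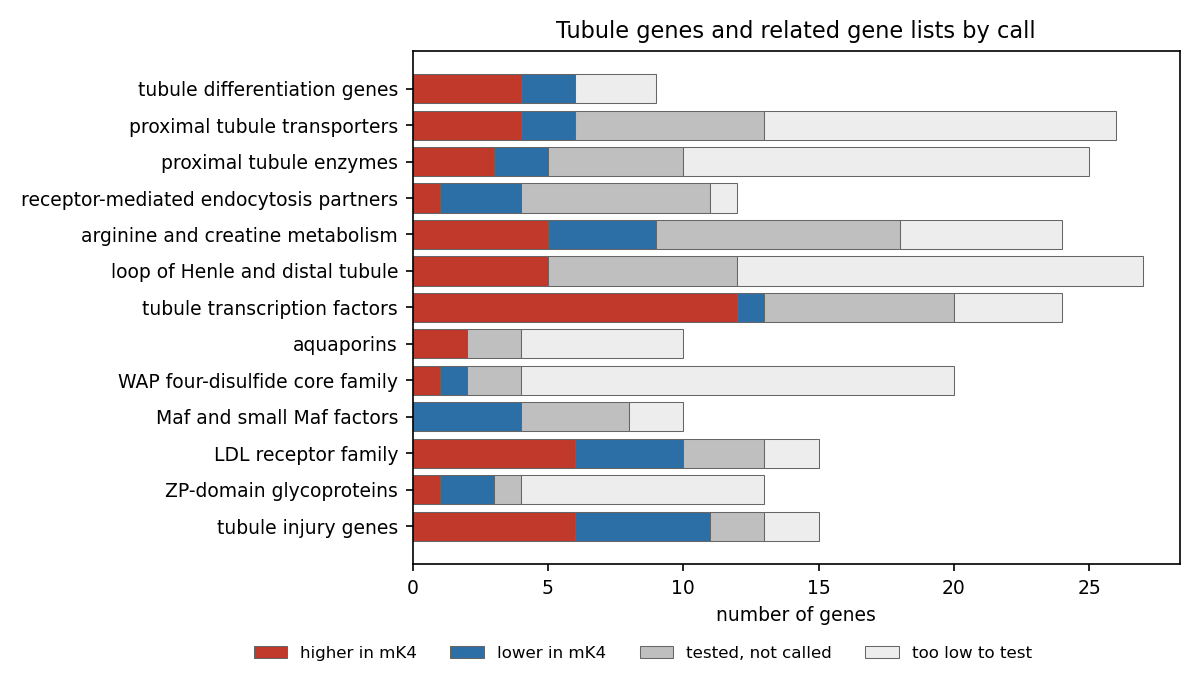
Number of genes in each list that were called higher in mK4 (red), called lower (blue), tested and not called (grey) or too low to test (pale). Of the tubule differentiation genes 4 are higher, 2 lower and 3 too low to test; the tubule transcription factor list has 12 higher and 1 lower, and 15 of the 25 proximal tubule enzyme genes are too low to test.

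Of the genes of tubule injury 13 were tested, with 6 higher and 5 lower (median -0.27), where 20.8% of all tested genes were higher and 19.5% lower. Spp1, Sox9 and Lcn2 rose, to 379 ± 19.7, 4.75 ± 0.754 and 8.62 ± 0.642 CPM in mK4, with 152 ± 9.70, 0.482 ± 0.082 and 0.934 ± 0.293 CPM in mK3. Ccl2, Cd44 and Timp1 fell, to 21.2 ± 1.34, 626 ± 38.5 and 10.4 ± 1.87 CPM in mK4, with 163 ± 23.4, 1351 ± 47.9 and 47.4 ± 4.10 CPM in mK3. Havcr1, the injury marker of proximal tubule cells, was at 0 in all libraries.

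Markers of the cell types these cells could resemble or contain were read beside the tubule genes. Over all tested genes, 20.8% were called higher in mK4 and 19.5% lower. The 16 nephron epithelium markers summed to 1981 to 2082 CPM in mK4 libraries and 15.6 to 18.8 CPM in mK3 libraries, with 4 of 8 tested higher and 1 lower (median 5.85). Most of the sum in mK4 was Cdh6, at 1668 ± 50.5 CPM with 0 in mK3, while Pkhd1 averaged 232 ± 5.15 CPM in mK4 and 1.19 ± 0.088 CPM in mK3. The tight junction gene Cldn1 averaged 118 ± 5.95 CPM in mK4 and 0.321 ± 0.174 CPM in mK3 (adjusted p = 6.2e-05). Ehf, an epithelial transcription factor gene, was the other called higher, at 2.14 ± 0.756 CPM in mK4 and 0 in mK3. Ocln, a further tight junction gene, averaged 2.72 ± 1.23 CPM in mK4 and 0.0725 ± 0.126 CPM in mK3 (adjusted p = 0.0506). Jag1 was the marker called lower, at 4.46 ± 0.448 CPM in mK4 and 9.53 ± 0.745 CPM in mK3 (adjusted p = 0.00206). Several other epithelial markers of the list were at or near 0. The mK4 libraries held 59, 0 and 59 Cdh1 counts and the mK3 libraries none. Epcam was at 0 in mK4 with 0, 0 and 90 counts in mK3, and Krt18, Cldn3, Cldn4 and Cldn7 were at 0 in all libraries. The 14 stroma and fibroblast markers summed to 166 to 186 CPM in mK4 and 4394 to 4819 CPM in mK3, with 10 of 13 tested lower and 2 higher (median -2.13). The 18 collecting duct markers summed to 14.2 to 18.3 CPM in mK4 and 4.94 to 9.37 CPM in mK3 (2 higher and 1 lower of 8, median -0.77). Most of the sum in mK4 was Wnt7b, at 11.04 ± 2.48 CPM with 0 in mK3 (adjusted p = 0.00016), while Avpr2, Scnn1g and Foxi1 were among the markers at 0 throughout. The 12 podocyte markers summed to 84.7 to 102 CPM in mK4 and 21.7 to 33.1 CPM in mK3 (1 higher, 1 lower of 8, median -0.07), with Podxl making most of the sum in mK4. The 12 endothelial markers summed to 27.0 to 29.1 CPM in mK4 and 25.9 to 31.4 CPM in mK3 (2 higher, 3 lower of 8, median -1.0). The 12 leukocyte markers summed to 5.01 to 6.44 CPM in mK4 and 1.91 to 3.52 CPM in mK3 (1 higher of 5, median 1.10), with Adgre1, Itgam, Tyrobp and C1qa at 0 throughout. The part of other cell types in the tubule gene differences was not tested.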

How the data were processed

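RNA-seq counts of 3 mK4 and 3 mK3 libraries and ATAC-seq peaks of 1 library per line were used. The authors deposited raw read counts for 59004 features, of which the 55558 Ensembl genes were analysed here. Per the labels, libraries were ribosomal RNA depleted and strand-specific. Per the submitters' processing notes, the tools included STAR 2.7.10a, HTSeq 2.0.2, Bowtie2 and MACS3, with the build mm10. The roles of these tools are not stated. The deposited peak lists give a fold enrichment (a ratio) and a −log10 q per peak, as the authors' caller wrote them.

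Counts were fitted with edgeR 4.0.16 in R 4.3.3 (filterByExpr, TMM, robust glmQLFit, glmQLFTest, prior count 0.125), with line as the only term. Benjamini-Hochberg adjustment ran over the 20405 genes tested, and 0.05 was the threshold. SE is the log2 fold change over the square root of F. Genes at 0 in a line were bounded with 3 counts per library. The alternatives were no TMM, RLE factors, DESeq2 1.42.0, other filters, no robust step, a replicate block and each library left out. The test was also run on simulated counts in which only a small part of the genes changed, unlike the 40.3% called here. That run cannot tell how scaling behaves when many genes differ. Peaks of the autosomes, X and Y were placed by RefSeq coordinates with Python 3.11.15. Library totals of 137559391 to 152952351 counts limit precision for low genes.

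The genes and lists were chosen with earlier results of these data known. Beyond the 9 genes, the genes named are up to 3 per list and direction with the smallest adjusted p, and the 2 nearest in profile; other list genes are named after their values were seen. Some list genes and motifs are counted or searched but not reported here by name. Same-numbered libraries did not deviate together (correlations of -0.02, 0.02 and 0.01 over genes), so the numbers were not used as pairs.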

Additional observations from a re-analysis of the deposited data

How the results depend on the processing

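Lrp2, Aqp1, Wfdc2 and Ass1 kept their direction and their calls in every alternative that gave a value, with log2 fold changes of 5.43 to 5.76 for Lrp2, 4.66 to 4.83 for Aqp1 and -2.00 to -1.82 for Ass1. Under the 1 CPM filter Wfdc2 was not tested. With 1 library left out at a time, the log2 fold change of Cubn was -1.22 to -0.80 and that of Maf 0.42 to 0.52; the calls were lost in 3 and 2 of these 6 fits, whose adjusted p are given beside the genes, and the cause was not tested. The number of these genes called lower was then 1 to 2 and the number called higher 3 to 4. Over 13 alternatives the adjusted p was 0.00035 to 0.0674 for Cubn and 0.0002 to 0.0578 for Maf. The fit with the replicate number as a block called 6410 genes in place of 8225, and Maf at 0.47 was not called in it (adjusted p = 0.0578), nor were Slc17a1 (0.0709), Aqp8 (0.0848) or Anpep (0.0922). DESeq2 called 9701 genes. Without TMM scaling the median of all genes moved up by 0.11 on the log2 scale, which changed no call among the 6 genes. Of the 69 other genes named by the rule, 8 lost their call in at least 1 alternative (21 of 862 fits), and none changed direction. Within 5 kb of a start site, 3 of the 9 genes had a peak in mK4 and 2 in mK3, against 1 each within 1 kb (Maf, read from either gene end). With a −log10 q of at least 10, 3 genes had a body peak in mK4 in place of 5. Hnf4a, Umod and Gatm could not be tested, and what can be said of them is limited by how far a 0 can be trusted.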
